A study of Mus musculus with 46 samples.

Results

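The genes described here are Cd8a, Cd8b1 and Cd4, which encode the T-cell coreceptors. They were chosen by name as 3 of the 48795 genes in a table of FPKM values (read fragments of a gene, scaled for transcript length and for the size of the library) from bulk RNA-seq of 46 samples. Their levels, the Cd8 to Cd4 ratios, and each gene relative to Cd3e, which encodes a chain of the CD3 complex carried by all mature T cells, were followed through all 8 replicate groups. These comprised 3 cultures of MC-38, a colon carcinoma line of C57BL/6 mice (1 cell line, grown without a host), and 43 subcutaneous MC-38 tumors, of which 3 were untreated baseline tumors from WT mice, for which the labels give no time. In the antibody study, 8- to 10-week-old female C57BL/6NTac mice received isotype control or the anti-mouse PD-1 antibody muDX400 (PD-1 Ab, 5 mg/kg, intraperitoneal), and 5 tumors per group were taken after 1 dose (day 4 of treatment, day 11 post-implant) or 2 doses (day 8, day 15 post-implant). The sources used here give no dose for the isotype control. In the genetic study, 10 tumors were labelled PD-1cKO (ROSA26creERT2 Pdcd1fl/fl) and 10 WT, which the methods describe as littermate controls. Both came from 8- to 10-week-old female mice given tamoxifen at 40 mg/kg on 5 consecutive days. The labels place those tumors at 28 day. The main RNA-seq results of the study also give day 28 post-implant, whereas its methods place the harvest earlier. The Rosa26 promoter that drives the tamoxifen-inducible Cre is active in most cell types, so the deletion was not limited to T cells, and the implanted MC-38 cells kept their own Pdcd1.

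The CD8 coreceptor on conventional cytotoxic T cells is a heterodimer of an alpha chain (Cd8a) and a beta chain (Cd8b1) that binds MHC class I, and CD4 on helper and regulatory T cells binds MHC class II. Both bring the kinase Lck to the engaged T-cell receptor. In mice, Cd8a is also made by some cross-presenting dendritic cells and by some T cells that carry an alpha-alpha homodimer, whereas Cd8b1 is largely limited to alpha-beta T cells. Cd4 RNA can also come from dendritic cells and other myeloid cells, so that a Cd8 to Cd4 ratio in whole tumor is not a ratio of T-cell numbers. In bulk tumor RNA, more cells of a type and more RNA per cell cannot be told apart, and this holds for every value below.

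The 3 genes lie on mouse chromosome 6 (GRCm38, GENCODE M21 gene models). Cd8b1 (ENSMUSG00000053044, chr6:71322788-71337494, plus strand) and Cd8a (ENSMUSG00000053977, chr6:71373427-71379173, plus strand) are neighbours with 35932 bases between them, and Cd4 (ENSMUSG00000023274, chr6:124864692-124888221, minus strand) lies far from that pair. The 50-base stretches of Cd8a, Cd4 and Cd3e occur in no other gene model, and 6.00% of those of Cd8b1 do, so reads from that share could be assigned elsewhere. The start-site region of Cd8a is shown because Cd8a and its neighbour Cd8b1 changed in like measure in the comparisons below. It is the RefSeq promoter window (GRCm38.p6, chr6:71373177-71373476, plus strand, 250 bases before and 50 after the start). Its 1 CAGCTG hexamer, a form of the E-box, is in capitals.
Cd8a promoter: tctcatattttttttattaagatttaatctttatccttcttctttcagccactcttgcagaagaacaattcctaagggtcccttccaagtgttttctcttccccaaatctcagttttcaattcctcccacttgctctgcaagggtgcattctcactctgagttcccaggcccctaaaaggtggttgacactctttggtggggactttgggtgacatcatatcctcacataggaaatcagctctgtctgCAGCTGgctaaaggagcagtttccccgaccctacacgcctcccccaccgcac
The letters searched, on both strands, were the E-box form CAGCTG, the RUNX form TGTGGT, the GATA form AGATAA and the ETS form CCGGAA. Other forms of these motifs were not searched. Matches of different motifs could overlap, and of 32851 promoters of the same length 16.3%, 16.8%, 11.2% and 14.9% held them. The Cd8a window held CAGCTG and no match to the other 3 strings, which says only what letters are in this window. The promoters of Cd8b1 and Cd4 are not shown here.

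The FPKM table gives no depth. The summed FPKM of the tumors ranged from 440865 to 569885 in the antibody study, apart from isotype control replicate 1 of the 1-dose groups at 818006, and from 598599 to 1224462 in the genetic study. Mitochondrial genes took 54.6% of the FPKM in that 1 tumor and 0.17% to 7.65% in the other tumors, so the main 1-dose differences are also given without it. The order of the groups, the spread within groups and the likeness over tumors include it. Sample identifiers fell into runs that split the 1-dose groups and the genetic groups unevenly, and within-run values stand beside those results. Nothing in the labels says what the runs are. Pdcd1, the targeted gene, was higher in PD-1cKO than in WT tumors (9.61 ± 4.51 against 3.30 ± 1.46 FPKM, mean ± SD, n = 10 each). The floxed region covers only part of Pdcd1, so its gene-level FPKM does not check the genotype labels.

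In cultured MC-38 cells the coreceptor genes were at or next to 0. Cd8a was 0.0121, 0 and 0 FPKM, Cd4 was 0, 0 and 0.0228 FPKM, and Cd8b1 and Cd3e were listed at 0 in all 3 cultures. Every tumor lay above every culture in all 4 genes. Across the 7 tumor groups, mean Cd8a rose in the order baseline (2.45 FPKM), isotype control 2 doses (3.09), isotype control 1 dose (3.54), WT (3.87), PD-1 Ab 1 dose (9.38), PD-1cKO (13.8) and PD-1 Ab 2 doses (27.9). No neighbours in that order were separate, because the ranges of each adjacent pair overlapped. Mean Cd8b1 put the same 3 PD-1 Ab or PD-1cKO groups on top, at 6.13 (PD-1 Ab 1 dose), 7.79 (PD-1cKO) and 18.9 FPKM (PD-1 Ab 2 doses), above 1.62 to 1.91 FPKM in the other 4. Mean Cd4 followed another order, from 0.741 FPKM at baseline over 1.02 (isotype control 1 dose), 1.11 (isotype control 2 doses), 2.18 (PD-1 Ab 1 dose), 2.19 (WT) and 4.16 (PD-1 Ab 2 doses) to 5.13 FPKM in PD-1cKO tumors. The step from isotype control 2 doses to PD-1 Ab 1 dose was the only adjacent step of the Cd4 order without overlapping ranges. WT tumors of the genetic study stood next to PD-1 Ab-treated tumors after 1 dose in Cd4, and next to isotype control tumors in Cd8a. These orders were read on the FPKM as deposited. Apart from 1 tumor, summed FPKM was higher in the genetic study than in the antibody study, as given above. Study, time and library scale therefore cannot be told apart where the order crosses the 2 studies.

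**Figure D1:**
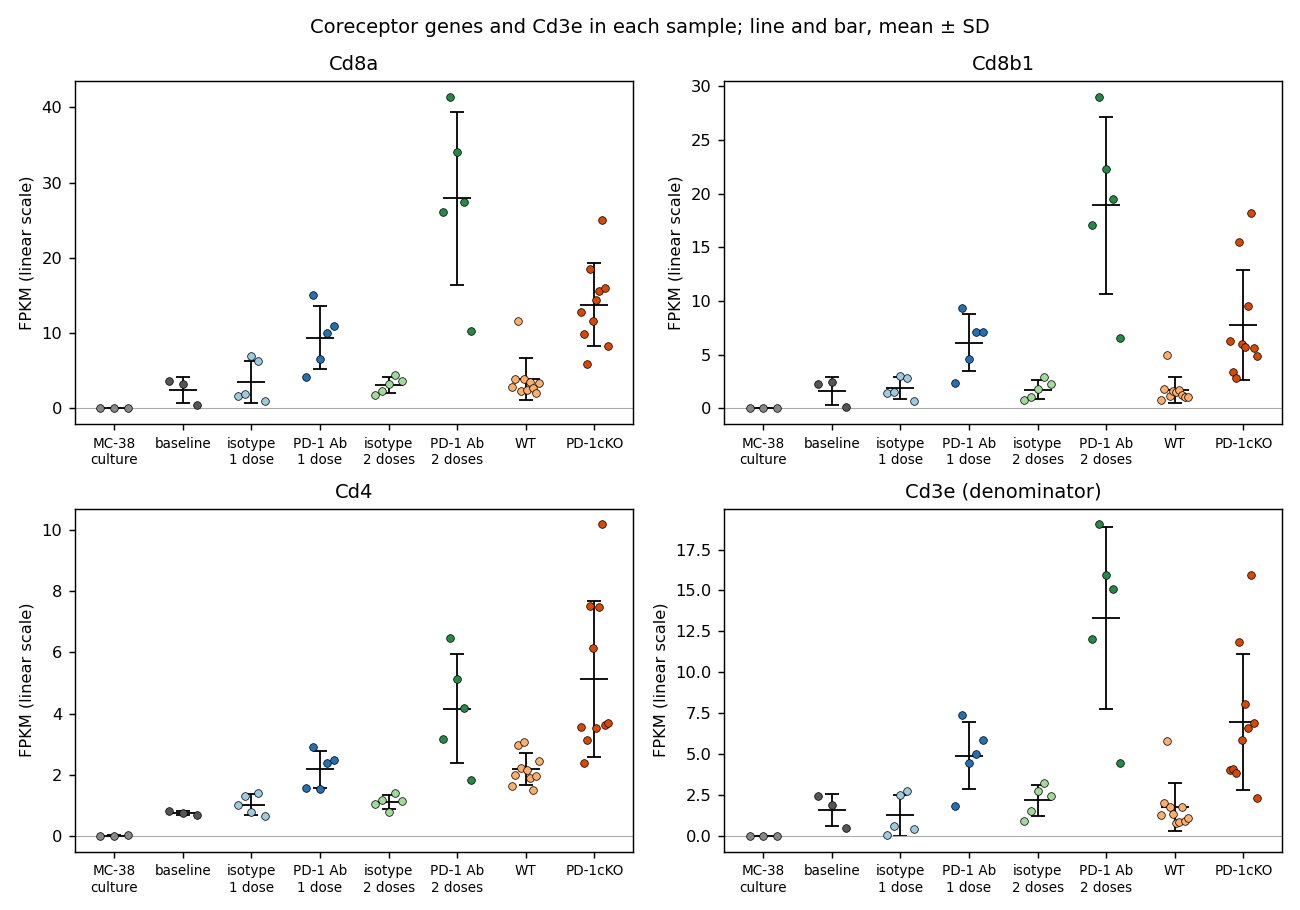
FPKM on a linear axis of Cd8a, Cd8b1, Cd4 and Cd3e, 1 panel each, with a point for each sample and mean ± SD as line and bar for the 8 replicate groups. Cd8a reaches 41.4 FPKM and Cd4 6.45 FPKM in tumors after 2 doses of PD-1 Ab, the cultures lie at or next to 0, and the highest Cd4 is in a PD-1cKO tumor at 10.2 FPKM.

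Among tumors of a group, Cd4 varied less than the CD8 genes in 6 of the 7 groups. The highest tumor had 1.20 times the Cd4 of the lowest at baseline, 1.81 times in isotype control tumors after 2 doses and 2.03 times in WT tumors. The same quotient for Cd8a was 7.29, 2.47 and 5.75 in those groups, and for Cd8b1 it was 18.1, 3.67 and 6.36. PD-1cKO was the group where the quotients of Cd4 (4.28) and Cd8a (4.22) were alike.

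The baseline tumors were uneven in the CD8 genes. Cd8a was 3.58, 3.27 and 0.492 FPKM and Cd8b1 was 2.29, 2.43 and 0.134 FPKM, whereas Cd4 was 0.811, 0.739 and 0.674 FPKM. The third tumor was low in both CD8 chains and in Cd3e (0.485 against 2.43 and 1.88 FPKM) but not in Cd4. Its Cd8a to Cd4 ratio was 0.729, against 4.42 in each of the others. Compared with the isotype control tumors after 2 doses, which are also the controls of the 2-dose comparison, none of the 3 genes differed beyond the spread, in a comparison where limma (Benjamini-Hochberg adjusted p under 0.01 and at least 2-fold) called 0.595% of all tested genes. The differences, baseline minus isotype control, were -0.65 (95% interval -1.92 to 0.62, adjusted p = 0.591) for Cd8a, -0.59 (-2.29 to 1.12, adjusted p = 0.724) for Cd8b1 and -0.50 (-1.07 to 0.06, adjusted p = 0.336) for Cd4 on the log2(FPKM + 0.1) scale. Without the low tumor the first 2 differences turned to 0.21 and 0.54.

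The 1-dose comparison asks what a single PD-1 Ab treatment did to the coreceptor genes. In isotype control tumors Cd8a was 1.67, 1.90, 6.95, 6.24 and 0.944 FPKM, and in PD-1 Ab-treated tumors it was 4.17, 15.1, 6.62, 10.1 and 10.9 FPKM. The groups overlapped, with 3 of 5 treated tumors above every control. Cd8b1 was 1.46, 1.49, 3.03, 2.86 and 0.706 FPKM in controls and 2.41, 9.36, 4.62, 7.12 and 7.12 FPKM after PD-1 Ab, with 4 of 5 above every control. Cd4 was 0.996, 1.32, 0.772, 1.40 and 0.640 FPKM in controls and 1.55, 2.90, 1.54, 2.38 and 2.50 FPKM after PD-1 Ab. Its groups did not overlap, although its change was the smallest of the 3, and 3.59% of all tested genes were separated in this direction.

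None of these 1-dose differences passed the test, and 0% of 14556 tested genes did (895 genes had an unadjusted p under 0.05). The log2 differences were 1.64 ± 0.54 (SE) for Cd8a (95% interval 0.46 to 2.82, limma adjusted p = 0.515), 1.66 ± 0.44 for Cd8b1 (0.70 to 2.62, adjusted p = 0.327) and 1.03 ± 0.31 for Cd4 (0.35 to 1.70, adjusted p = 0.439). Cd3e differed by 2.46 ± 0.73 (adjusted p = 0.431), from 1.26 ± 1.26 to 4.92 ± 2.03 FPKM, and by 1.83 ± 0.55 without isotype control replicate 1 (limma adjusted p = 0.130). Without isotype control replicate 1 the differences were 1.48 for Cd8a (adjusted p = 0.221), 1.61 for Cd8b1 (adjusted p = 0.117) and 1.03 for Cd4 (adjusted p = 0.101), and limma called 7 genes of the table, none of them a coreceptor gene. One run of identifiers held 3 control tumors alone. In the other, 5 treated tumors had 4.17 to 15.1 FPKM of Cd8a against 0.944 and 6.24 in 2 controls, and 1.54 to 2.90 FPKM of Cd4 against 0.640 and 1.40. The median of all genes was shifted by 0.26 in this comparison, and scaling by the median of ratios took it to 0.01 and the 3 differences to 1.39, 1.41 and 0.78.

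After 2 doses all 3 coreceptor genes rose, and the CD8 chains rose most. Cd8a, the alpha chain, was 1.79, 2.37, 3.19, 4.41 and 3.68 FPKM in isotype control tumors and 26.1, 41.4, 34.1, 27.5 and 10.3 FPKM in PD-1 Ab-treated tumors. Cd8b1, the beta chain, was 0.789, 1.04, 1.79, 2.89 and 2.27 FPKM in controls and 17.1, 29.1, 22.3, 19.5 and 6.57 FPKM after PD-1 Ab. Cd4 was 1.03, 1.19, 0.779, 1.41 and 1.13 FPKM in controls and 3.18, 6.45, 5.13, 4.20 and 1.84 FPKM after PD-1 Ab. No treated tumor overlapped the controls in any of the 3 genes, a separation seen for 9.23% of all tested genes, and the fifth treated tumor was the lowest in all 3. Mean ± SD went from 3.09 ± 1.04 to 27.9 ± 11.6 FPKM for Cd8a, from 1.76 ± 0.867 to 18.9 ± 8.21 for Cd8b1 and from 1.11 ± 0.231 to 4.16 ± 1.77 for Cd4 (n = 5 each).

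The test called all 3 genes as higher, against 5.3% of the 15062 genes tested (5.03% higher and 0.272% lower). The log2 fold change was 3.06 ± 0.35 (SE) for Cd8a (95% interval 2.30 to 3.82, limma adjusted p = 0.000837), 3.34 ± 0.41 for Cd8b1 (2.44 to 4.25, adjusted p = 0.000885) and 1.72 ± 0.30 for Cd4 (1.06 to 2.38, adjusted p = 0.0031). Cd3e lay between them at 2.52 ± 0.41 (adjusted p = 0.00219), from 2.20 ± 0.943 to 13.3 ± 5.53 FPKM, and Pdcd1 rose by 2.64 ± 0.36 (adjusted p = 0.00106). The Cd4 call was the least firm of the 3, since it was lost without PD-1 Ab replicate 3 (1.62, adjusted p = 0.0126) and with no filter on low genes (1.72, adjusted p = 0.0106).

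PD-1cKO tumors also had more of all 3 coreceptor genes than WT tumors. Cd8a had a lowest, median and highest value of 2.02, 3.12 and 11.6 FPKM in WT tumors and of 5.92, 13.6 and 25.0 FPKM in PD-1cKO tumors. For Cd8b1 these values were 0.788, 1.41 and 5.01 FPKM in WT and 2.87, 5.87 and 18.2 FPKM in PD-1cKO tumors. For Cd4 they were 1.52, 2.08 and 3.08 FPKM in WT and 2.38, 3.66 and 10.2 FPKM in PD-1cKO tumors. All 3 genes overlapped between the groups, with 6, 7 and 9 of 10 PD-1cKO tumors above every WT tumor for Cd8a, Cd8b1 and Cd4, and 0.643% of all tested genes were fully separated in this direction. One WT tumor, replicate 3, set the upper end of the WT Cd8a range, which reached 3.94 FPKM without it.

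The test called the 3 genes as higher in PD-1cKO tumors, against 8.07% of the 15075 genes tested (4.2% higher and 3.87% lower). The log2 fold change was 1.89 ± 0.27 for Cd8a (95% interval 1.33 to 2.45, limma adjusted p = 0.000423), 2.07 ± 0.32 for Cd8b1 (1.41 to 2.73, adjusted p = 0.000606) and 1.08 ± 0.22 for Cd4 (0.61 to 1.55, adjusted p = 0.00188). Cd3e changed by 1.96 ± 0.33 (adjusted p = 0.000726), from 1.77 ± 1.49 to 6.96 ± 4.15 FPKM. The median of all genes was -0.20 in this comparison, and median-of-ratios scaling, which took it to -0.04, gave 2.05, 2.23 and 1.24 for the 3 genes. That scaling also moved the split of calls over all genes from 633 higher and 584 lower to 922 higher and 335 lower. The Cd4 call fell under the 2-fold limit without PD-1cKO replicate 8 (0.96, adjusted p = 0.00297).

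The genetic groups were unevenly spread over the runs of identifiers. A run of 7 PD-1cKO tumors held no WT tumor. In the run with 9 WT tumors, the 1 PD-1cKO tumor had 25.0 FPKM of Cd8a, 18.2 of Cd8b1 and 10.2 of Cd4, above the WT ranges of 2.02 to 11.6, 0.788 to 5.01 and 1.52 to 3.08. In the last run, 2 PD-1cKO tumors had 8.25 and 16.0 FPKM of Cd8a and 3.62 and 3.71 of Cd4, against 3.34 and 2.45 FPKM in 1 WT tumor. With the run as a covariate the log2 fold changes were 2.38, 2.91 and 1.51 for Cd8a, Cd8b1 and Cd4, but the limma adjusted p rose to 0.0254, 0.0254 and 0.0257, and no gene of the table was called (6533 had an unadjusted p under 0.05).

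**Figure D2:**
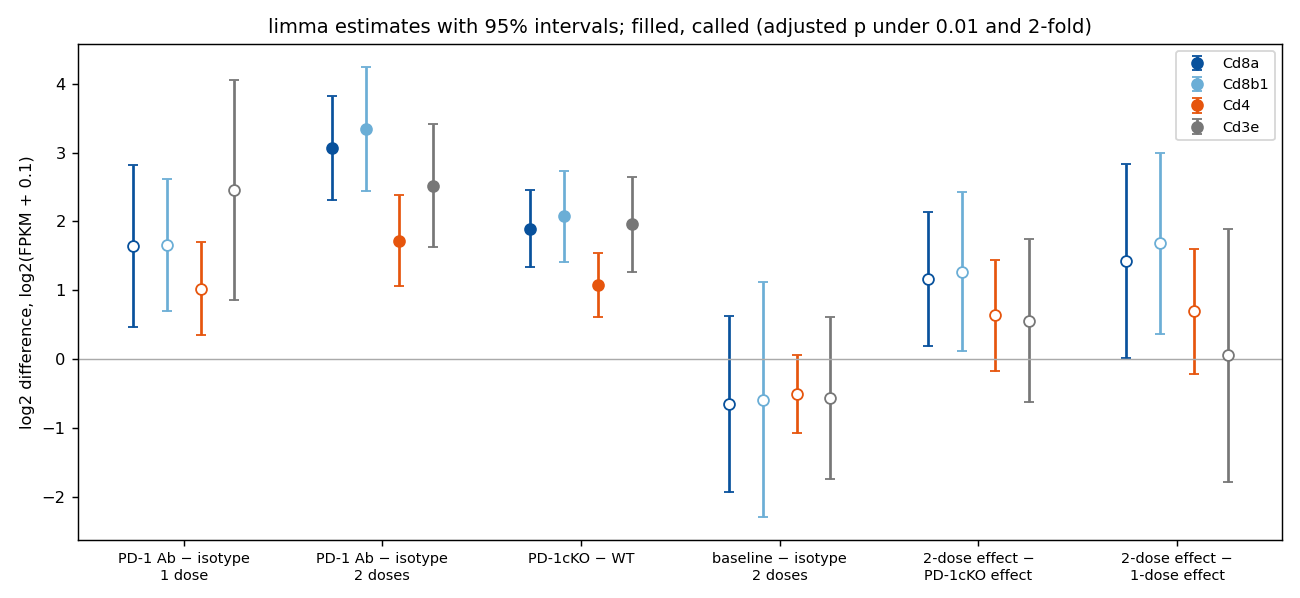
Log2 difference on the log2(FPKM + 0.1) scale with 95% limma intervals for Cd8a, Cd8b1, Cd4 and Cd3e in the 4 comparisons and the 2 tests of differences between changes, with filled points for called genes. Cd4 lies at 1.03, 1.72 and 1.08 in the 1-dose, 2-dose and PD-1cKO comparisons, below Cd8a at 1.64, 3.06 and 1.89, and filled points appear only after 2 doses and in PD-1cKO tumors.

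Differences between the changes were tested directly. The 2-dose antibody change minus the PD-1cKO change was 1.17 for Cd8a (95% interval 0.20 to 2.14, limma adjusted p = 0.241), 1.27 for Cd8b1 (0.12 to 2.43, adjusted p = 0.275) and 0.64 for Cd4 (-0.16 to 1.45, adjusted p = 0.400), in a test that called 0.0914% of genes. The 2-dose change minus the 1-dose change was 1.42 for Cd8a (0.02 to 2.83, adjusted p = 0.623), 1.69 for Cd8b1 (0.37 to 3.0, adjusted p = 0.623) and 0.70 for Cd4 (-0.21 to 1.60, adjusted p = 0.627), where limma called 0% of genes (1182 had an unadjusted p under 0.05). Without isotype control replicate 1 these came to 1.58, 1.74 and 0.69 (limma adjusted p = 0.241, 0.190 and 0.394). None of these passed as fitted. With array weights, which let single tumors count less, limma called all 3 genes in the first (1.76, 2.03 and 1.14, adjusted p = 0.00417, 0.00392 and 0.00878). It then called Cd8a and Cd8b1 in the second (2.38 and 2.44, adjusted p = 0.0091 and 0.00595). That setting raised the calls over the whole table, to 603 of 16404 genes in the first (15 as fitted) and 506 of 15289 in the second (0 as fitted).

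The balance between the coreceptors was read as ratios within each tumor, which no scaling of the sample can alter. After 2 doses the Cd8a to Cd4 ratio was 1.73, 2.0, 4.10, 3.12 and 3.24 in isotype control tumors and 8.23, 6.42, 6.65, 6.55 and 5.60 in PD-1 Ab-treated tumors. The Cd8b1 to Cd4 ratio was 0.763, 0.875, 2.30, 2.05 and 2.0 in controls and 5.39, 4.50, 4.34, 4.66 and 3.57 after PD-1 Ab. Every treated tumor lay above every control in both. The geometric mean of Cd8a to Cd4 rose from 2.70 to 6.64, or 2.46-fold (log2 difference 1.30 ± 0.25, SE, exact permutation p = 0.00794, adjusted p = 0.0362 over 24 ratio tests), and that of Cd8b1 to Cd4 rose from 1.44 to 4.45, or 3.08-fold (1.62 ± 0.35, the same exact p and adjusted p). That exact p is the smallest that the 252 splits of 5 against 5 tumors allow. The fifth treated tumor, lowest in every coreceptor gene, was also lowest in both ratios, and the treated tumor highest in Cd8a was not the highest in either.

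**Figure D3:**
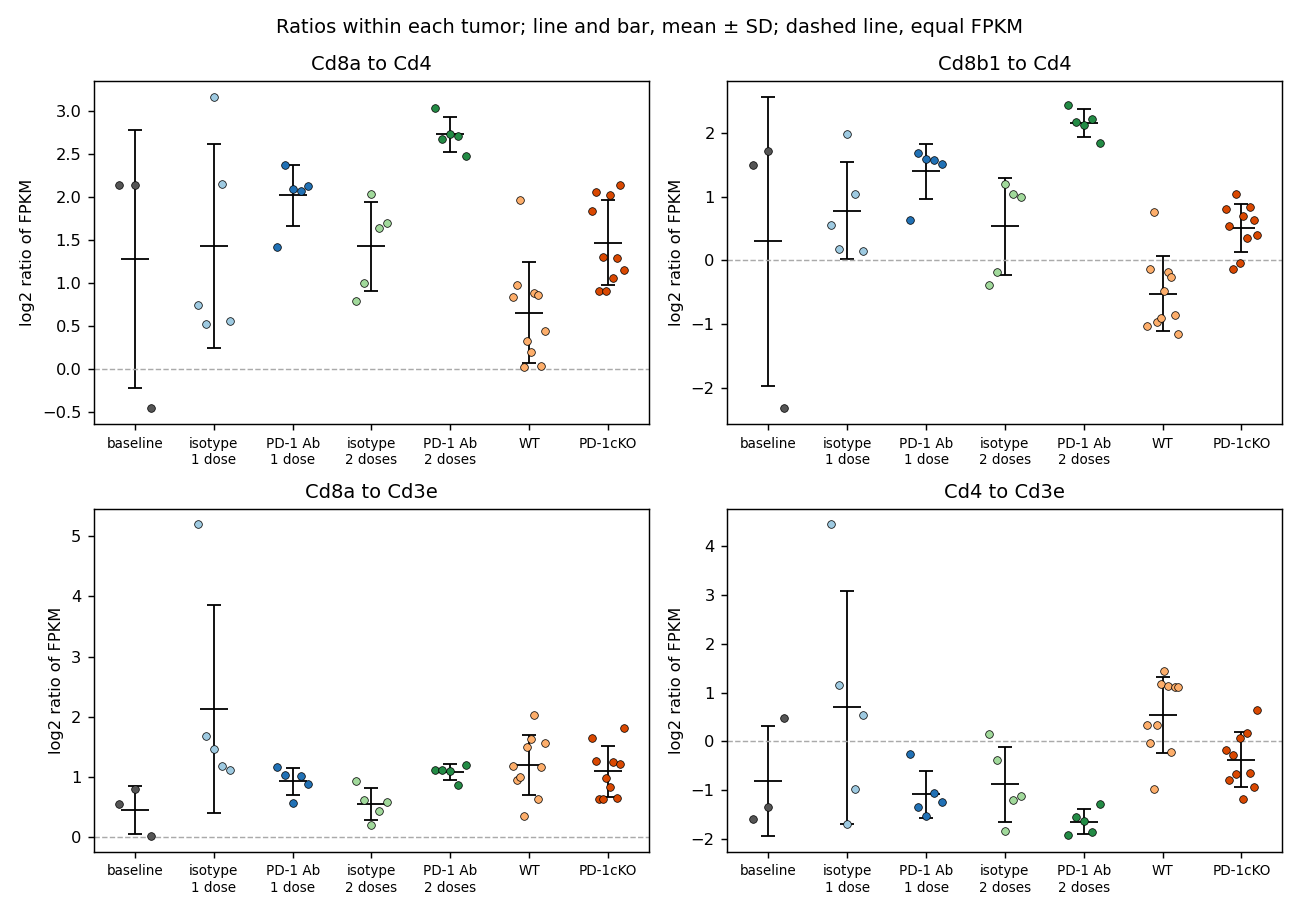
Log2 ratio of FPKM within each tumor (points) with mean ± SD as line and bar for the 7 tumor groups, 1 panel each for Cd8a to Cd4, Cd8b1 to Cd4, Cd8a to Cd3e and Cd4 to Cd3e, and a dashed line at equal FPKM. The Cd8a to Cd4 points after 2 doses of PD-1 Ab (mean 2.73) lie above all of their isotype control tumors (mean 1.43), and WT tumors have the lowest mean at 0.66.

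PD-1cKO tumors were also shifted toward the CD8 genes, from a lower start. The Cd8a to Cd4 ratio had a lowest, median and highest value of 1.02, 1.58 and 3.93 in WT tumors and of 1.88, 2.46 and 4.42 in PD-1cKO tumors, so that the groups overlapped and 3 of 10 PD-1cKO tumors lay above every WT tumor. Its geometric mean was 1.58 in WT and 2.77 in PD-1cKO tumors, 1.76-fold higher (log2 difference 0.81 ± 0.24, permutation p = 0.00392, adjusted p = 0.0362). The Cd8b1 to Cd4 ratio was 0.448, 0.632 and 1.69 in WT and 0.913, 1.49 and 2.06 in PD-1cKO tumors, 2.05-fold higher in geometric mean (1.04 ± 0.22, permutation p = 0.00046, adjusted p = 0.011). Within the run of 9 WT tumors, the Cd8a to Cd4 ratio of the 1 PD-1cKO tumor, 2.45, fell inside the WT range of 1.02 to 3.93, and in the last run 2 PD-1cKO tumors had 2.23 and 4.42 against 1.36 in 1 WT tumor. Over all 7 tumor groups the mean Cd8a to Cd4 ratio was lowest in WT tumors (1.72) and highest after 2 doses of PD-1 Ab (6.69). PD-1cKO tumors (2.92) sat next to isotype control tumors after 2 doses (2.84), with overlapping ranges. The step from PD-1 Ab 1 dose (4.16) to 2 doses (6.69) was the only one in the order without overlap.

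After 1 dose the Cd8a to Cd4 ratio was 1.68, 1.44, 9.01, 4.46 and 1.47 in isotype control tumors and 2.69, 5.21, 4.29, 4.22 and 4.38 in PD-1 Ab-treated tumors. The highest ratio of all 43 tumors stood in an isotype control tumor, the third, and no treated tumor exceeded it. The log2 difference was 0.59 ± 0.55 (exact permutation p = 0.341, adjusted p = 0.546), and that of Cd8b1 to Cd4 was 0.62 ± 0.39 (exact permutation p = 0.127, adjusted p = 0.254). Without isotype control replicate 1 they were 0.42 and 0.57 (exact permutation, adjusted p = 0.786 and 0.416). The ratio changes of 2 doses and 1 dose differed by 0.71 ± 0.60 for Cd8a to Cd4 (limma adjusted p = 0.330, and 0.88 with adjusted p = 0.384 without isotype control replicate 1), and those of 2 doses and PD-1cKO by 0.47 ± 0.41 (limma adjusted p = 0.665). Baseline tumors showed no ratio that differed from isotype control tumors (exact permutation, adjusted p = 0.893 for all 6 ratios), in a design of 3 against 5 tumors whose smallest exact p is 0.0357.

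The balance of the 2 CD8 chains was compared in the same way. The Cd8b1 to Cd8a ratio changed by 0.03 after 1 dose (exact permutation, adjusted p = 0.893), by 0.33 ± 0.13 after 2 doses (exact permutation p = 0.0317, adjusted p = 0.0847) and by 0.22 ± 0.17 in PD-1cKO tumors (permutation p = 0.216, adjusted p = 0.370) on the log2 scale. Its geometric mean after 2 doses was 0.671 with PD-1 Ab and 0.535 with isotype control. None of these passed.

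Relative to Cd3e, both CD8 chains rose after 2 doses. After 2 doses the Cd8b1 to Cd3e ratio was 0.847, 0.670, 0.646, 0.886 and 0.924 in isotype control tumors and 1.42, 1.53, 1.40, 1.29 and 1.47 in PD-1 Ab-treated tumors, with no overlap. It was 1.80-fold higher in geometric mean (log2 difference 0.85 ± 0.11, exact permutation p = 0.00794, adjusted p = 0.0362). Cd8a to Cd3e was 1.92, 1.53, 1.15, 1.35 and 1.50 in controls and 2.17, 2.18, 2.14, 1.82 and 2.31 after PD-1 Ab, with 4 of 5 treated tumors above every control (1.44-fold, exact permutation p = 0.0159, adjusted p = 0.0476). The Cd8a to Cd3e call was lost in 8 of the 10 fits without 1 tumor (exact permutation, adjusted p of 0.0847 to 0.0952) and with 0.1 FPKM added (adjusted p = 0.0544). Cd4 to Cd3e was 1.11, 0.766, 0.281, 0.433 and 0.462 in controls and 0.263, 0.339, 0.322, 0.278 and 0.412 after PD-1 Ab. That ratio overlapped between the groups and its difference of -0.77 ± 0.36 did not pass (exact permutation p = 0.0635, adjusted p = 0.152).

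In the genetic study the CD8 chains did not pass a test relative to Cd3e, and Cd4 passed with all 20 tumors. Cd8a to Cd3e had a median of 2.26 in WT (range 1.28 to 4.07) and of 2.15 in PD-1cKO tumors (1.55 to 3.50), a log2 difference of -0.11 ± 0.21 (permutation p = 0.597, adjusted p = 0.893). Cd8b1 to Cd3e differed by 0.11 ± 0.25 (permutation p = 0.651, adjusted p = 0.893). Cd4 to Cd3e was lower in PD-1cKO tumors, with a median of 0.731 (0.440 to 1.57) against 1.71 (0.508 to 2.72) in WT tumors, 0.528-fold in geometric mean (-0.92 ± 0.31, permutation p = 0.00906, adjusted p = 0.0362). That call was lost without PD-1cKO replicate 6 (-0.83, permutation adjusted p = 0.0525) and without WT replicate 6 (-0.82, permutation adjusted p = 0.0506). Within the run of 9 WT tumors, whose ratios spanned 0.508 to 2.72, the 1 PD-1cKO tumor had 0.638. In the last run 2 PD-1cKO tumors had 0.523 and 1.57 against 2.16 in 1 WT tumor. The tests of whether the antibody and genetic changes relative to Cd3e differed gave 0.62 ± 0.51 for Cd8a and 0.10 ± 0.59 for Cd4 (limma adjusted p = 1.00 for both), so the 2 patterns are not shown to differ.

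After 1 dose, Cd8a to Cd3e was 36.7, 3.20, 2.77, 2.28 and 2.16 in isotype control tumors and between 1.49 and 2.24 in PD-1 Ab-treated tumors, 0.437-fold (exact permutation p = 0.0159, adjusted p = 0.0476). The 36.7 is isotype control replicate 1, where Cd3e was 0.0455 FPKM and mitochondrial genes took 54.6% of the FPKM. Without that tumor the log2 difference went from -1.20 to -0.43 (exact permutation, adjusted p = 0.0847), and the call was lost in 8 of the 10 fits without 1 tumor (adjusted p of 0.0693 to 0.0847). Cd8b1 to Cd3e and Cd4 to Cd3e did not pass after 1 dose (exact permutation, adjusted p = 0.337 and 0.254), nor without that tumor (-0.28 and -0.85, exact permutation, adjusted p = 0.626 and 0.440).

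**Figure D4:**
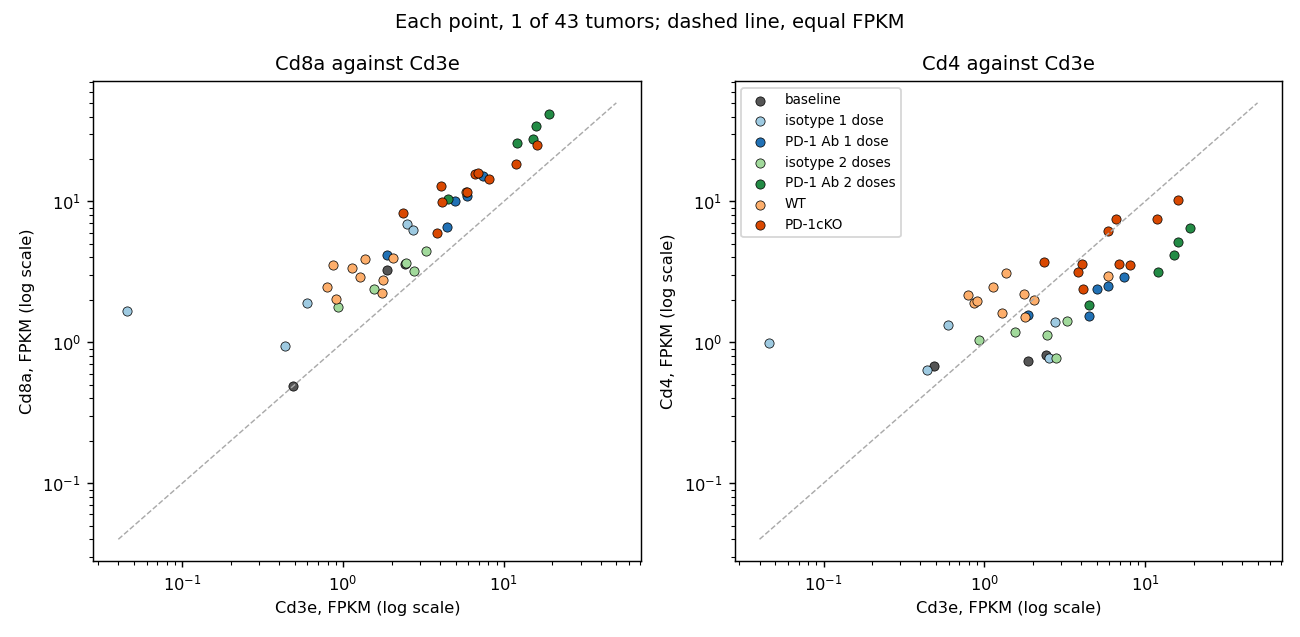
Cd8a (left) and Cd4 (right) against Cd3e in FPKM, all axes log, with a point for each of the 43 tumors coloured by group and a dashed line at equal FPKM. Cd8a stays above the line in all tumors but lies close to it in the low baseline tumor, Cd4 falls below the line in every tumor after 2 doses of PD-1 Ab, and the tumor at 0.0455 FPKM of Cd3e stands alone at the left.

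Because Cd4 can come from myeloid cells, its levels were set beside markers of those cells. Of 10 macrophage markers, 8 rose after 2 doses and 4 in PD-1cKO tumors. Their summed level was 836 to 1306 FPKM in isotype control and 1547 to 3216 FPKM in PD-1 Ab-treated tumors after 2 doses, and 969 to 1608 FPKM in WT and 1400 to 4668 FPKM in PD-1cKO tumors. After 1 dose the sum was 212 to 1123 FPKM in isotype control and 1133 to 1615 FPKM in PD-1 Ab-treated tumors. The 212 FPKM is isotype control replicate 1, and the other 4 controls had 694 to 1123 FPKM. None of the markers was at 0 throughout a tumor group, whereas Adgre1, C1qa, C1qb, C1qc and Itgam were listed at 0 in every culture (summed level 8.96 to 10.5 FPKM). Csf1r, the receptor for macrophage colony-stimulating factor, rose from 40.0 to 115 FPKM after 2 doses and was 71.8 FPKM in WT and 141 FPKM in PD-1cKO tumors, where its log2 difference of 0.96 missed the 2-fold limit. The part of macrophages in the Cd4 values was not tested.

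Dendritic cell markers bear on both coreceptor genes. Of the 7 conventional dendritic cell markers, 3 rose after 2 doses, Xcr1 (1.98), Clec9a (1.72) and Itgax (1.19), and none of the 6 tested was called in PD-1cKO tumors. Their sum was 33.1 to 47.2 FPKM in isotype control and 67.7 to 90.9 FPKM in PD-1 Ab-treated tumors after 2 doses, and 46.5 to 81.4 FPKM in WT and 70.7 to 272 FPKM in PD-1cKO tumors. Xcr1 and Clec9a mark the cross-presenting subset, some cells of which can carry Cd8a, and the part of these cells in the Cd8a values was not tested. Of 5 plasmacytoid dendritic cell markers, 2 or 3 were tested, depending on the comparison, and none was called, with sums of 26.4 to 48.9 against 18.2 to 42.6 FPKM after 2 doses. The cultures summed to 41.6 to 42.3 FPKM for that list, with Siglech and Klk1 at 0, so the list as a whole was as high in cultured cells as in tumors.

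The tumors did hold T cells by their own markers. All 8 T-cell markers rose after 2 doses and in PD-1cKO tumors, and their sum was 7.75 to 23.6 FPKM at baseline, 6.40 to 28.0 after 1 dose of isotype control, 18.3 to 56.9 after 1 dose of PD-1 Ab, 12.2 to 21.2 after 2 doses of isotype control, 37.9 to 140 after 2 doses of PD-1 Ab, 8.94 to 32.6 in WT and 24.2 to 115 in PD-1cKO tumors. In the cultures Cd3d, Cd3e, Cd3g and Cd2 were at 0, while the list summed to 6.84 to 7.39 FPKM, above the lowest isotype control tumor after 1 dose. The genes for gamma-delta T cells and for immature thymocytes, both of which can carry other coreceptor patterns, were all too low to be tested in any comparison. Of the remaining lists, after 2 doses 1 of 3 NK cell markers, 1 of 2 lymph node stroma markers and 1 of 4 neutrophil markers rose, 1 neutrophil marker fell, and 0 of 4 B-cell and 0 of 4 MC-38 epithelial markers were called. In PD-1cKO tumors 2 of 4 neutrophil markers rose and none of the tested NK cell, B-cell, lymph node stroma or epithelial markers was called. No marker of any list was called after 1 dose or at baseline.

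The genes whose levels ran most like each coreceptor over the 43 tumors differed between CD8 and CD4. Likeness was Pearson's r of log2(FPKM + 0.1) over those tumors among 14864 genes, a description over libraries that share treatment groups. For Cd8a the closest were Cd3g (a CD3 chain, r = 0.97), Cd8b1 (0.97), Nkg7 (a cytotoxic granule protein, 0.96), Pdcd1 (0.95) and Il2rb (an interleukin-2 receptor chain, 0.95). For Cd8b1 they were Cd8a, Cd3g (0.96), Sh2d2a (a T-cell adaptor, 0.94), Ptpn22 (a phosphatase of lymphocytes, 0.94) and Il18bp (a decoy for interleukin-18, 0.93). For Cd4 they were Itga11 (a collagen-binding integrin, 0.95), Fli1 (an ETS factor of endothelial and blood cells, 0.95), Nbl1 (a secreted BMP antagonist, 0.95), Adamts15 (an extracellular protease, 0.95) and Ace (angiotensin-converting enzyme, 0.94). None of the 5 genes most like Cd4 encodes a coreceptor or a chain of the T-cell receptor complex. In the ranking for Cd4, Csf1r stood at rank 153 (r = 0.88), Cd8a at 562 (0.80), Cd8b1 at 744 (0.76) and Cd3e at 983 (0.72), whereas Cd3e stood at rank 18 for Cd8a (0.93). With each group's mean removed, Cd4 ran with Csf1r at r = 0.54, with Cd8a at 0.57, with Cd8b1 at 0.66 and with Cd3e at 0.49. The r of Cd4 with Itga11 was then 0.85.

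Within a single group the coreceptors could be related only in the 10 WT and the 10 PD-1cKO tumors, where 12 relations were computed on the log2(FPKM + 0.1) scale. In PD-1cKO tumors Cd8b1 followed Cd8a (Pearson's r = 0.89, permutation p = 0.00072, adjusted p = 0.00696, Spearman's rho = 0.83, permutation p = 0.00463) and Cd8a followed Cd3e (r = 0.87, permutation p = 0.00116, adjusted p = 0.00696, rho = 0.92, permutation p = 0.00048). Cd4 followed Cd3e (r = 0.73, permutation p = 0.0162, adjusted p = 0.0389, rho = 0.56, permutation p = 0.0968) and Cd8a (r = 0.71, permutation p = 0.0201, adjusted p = 0.0401, rho = 0.70, permutation p = 0.0306), and its relation with Csf1r did not pass (r = 0.67, permutation p = 0.0392, adjusted p = 0.0587, rho = 0.61, permutation p = 0.0668). Cd8a also followed Xcr1 (r = 0.83, permutation p = 0.00291, adjusted p = 0.0116, rho = 0.75, permutation p = 0.0178). After adjustment rho passed in PD-1cKO tumors only for Cd8b1 on Cd8a (permutation adjusted p = 0.0278) and Cd8a on Cd3e (0.00576). The adjusted p of rho was 0.145, 0.0735 and 0.134 for Cd4 on Cd3e, Cd8a and Csf1r, and 0.0534 for Cd8a on Xcr1. Xcr1 was near the floor in these tumors, at 0 to 0.609 FPKM with a mean of 0.299. That mean is under the 0.5 FPKM filter of the level tests, and the lowest values lie under the 0.1 FPKM added. Without the 2 tumors farthest from the median on the x axis, these 6 values of r were 0.76, 0.79, 0.66, 0.55, 0.61 and 0.48, and none passed with the 8 remaining tumors (adjusted p of 0.163 to 0.343, permutation), including Cd4 on Csf1r, which had not passed before. Within the 7 PD-1cKO tumors of 1 run of identifiers r was 0.90, 0.79, 0.70, 0.65, 0.80 and 0.74.

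In WT tumors, the relations of Cd8b1 with Cd8a (r = 0.89, permutation p = 0.0070, adjusted p = 0.021, rho = 0.75, permutation p = 0.0175) and of Cd8a with Cd3e (r = 0.82, permutation p = 0.0245, adjusted p = 0.042, rho = 0.50, permutation p = 0.146) passed for r. Their rho did not pass after adjustment (permutation adjusted p = 0.0534 and 0.195). Without the 2 tumors farthest on the x axis these 2 relations came to r = 0.48 and 0.16 (rho = 0.60 and 0.21). Neither then passed (permutation adjusted p = 0.343 and 0.757 for r). That removal also narrows the range on the x axis, which can itself lower r. Within the 9 WT tumors of 1 run r was 0.91 and 0.82. Cd4 in WT tumors followed neither Cd3e (r = 0.37, permutation p = 0.30, adjusted p = 0.327, rho = 0.19, permutation p = 0.609), nor Cd8a (r = 0.57, permutation p = 0.0889, adjusted p = 0.107, rho = 0.38, permutation p = 0.279), nor Csf1r (r = 0.58, permutation p = 0.0783, adjusted p = 0.104, rho = 0.56, permutation p = 0.0966) past the threshold of 0.05. Cd8a and Xcr1 had r = -0.06 (permutation p = 0.840, rho = -0.20, permutation p = 0.583).

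The partners of the coreceptors were read from 6 gene lists, whose median changes stand beside a median of -0.04 over all genes after 2 doses and -0.20 in PD-1cKO tumors. All 7 genes of the T-cell receptor complex rose in both comparisons, with a median log2 fold change of 2.52 after 2 doses and 1.74 in PD-1cKO tumors. After 2 doses Cd3g (2.95) and the receptor beta constant gene Trbc1 (2.93) rose most, and the zeta chain Cd247 (1.45) and the alpha constant gene Trac (2.46) least. The cultures summed to 6.80 to 7.32 FPKM for this list, and the other 5 genes were at 0 in every culture. Cd247 and Trac averaged 3.08 and 3.72 FPKM in isotype control tumors after 2 doses. The part of tumor cells in those values was not tested. In PD-1cKO tumors Cd3e (1.96) and Trbc2 (1.92) led, and Cd3d (1.22) and Trbc1 (1.56) came last. Trbc1 and Trbc2 are near-identical copies, so how reads were divided between them is uncertain.

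Of 11 genes of coreceptor-proximal signaling, 7 rose after 2 doses (median 1.84) and 6 in PD-1cKO tumors (median 1.17). After 2 doses the adaptor Lat rose by 2.58, while Csk, which inhibits Lck (0.18, limma adjusted p = 0.169), and the ubiquitin ligase Cblb (0.45, adjusted p = 0.0601) were lowest and did not pass. In PD-1cKO tumors Lat (1.94) and the kinase Zap70 (1.90) rose most, and the Lck relative Fyn (0.10, limma adjusted p = 0.556) and Csk (0.20, adjusted p = 0.089) did not pass.

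Of 7 genes for the ligands, 4 rose after 2 doses, all of them on the MHC class II side that CD4 binds (median of the list 1.67). The class II chains H2-Aa (1.83) and H2-Eb1 (1.76) rose most, and the class I heavy chain H2-D1 (0.37, limma adjusted p = 0.101) and the class I light chain B2m (0.41, adjusted p = 0.0439) were lowest and were not called. Genes of the H2 family resemble one another in sequence, so their single values are less certain than the direction of the group. In PD-1cKO tumors none of the 7 was called (median 0.77), since H2-Ab1 (0.98, limma adjusted p = 0.000834) and H2-Eb1 (0.86) were under the 2-fold limit, and H2-K1 was at 0.40 (adjusted p = 0.0166) and B2m at -0.26 (adjusted p = 0.153).

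Of 13 transcription factors of the CD4 and CD8 lineages, 3 rose in each comparison, with list medians of 0.14 after 2 doses and 0.37 in PD-1cKO tumors. They were led by the T-lineage factor Bcl11b (2.24 and 2.07) and the effector factor Tbx21 (2.10 and 1.80). The list summed to 125 to 131 FPKM in the cultures, where only Bcl11b and Tbx21 were at 0 throughout. It summed to 117 to 153 FPKM in WT and 95.7 to 148 FPKM in PD-1cKO tumors. Much of the list was thus present without T cells, and its medians need not describe T cells. After 2 doses Lef1 (-0.65, limma adjusted p = 0.0181) and Patz1 (-0.36, adjusted p = 0.0506), both zinc-finger or HMG-box factors of T-cell development, were lowest, and in PD-1cKO tumors the RUNX partner Cbfb (-0.55, adjusted p = 0.0105) and Lef1 (-0.47, adjusted p = 0.179), none of them called. Runx3, which maintains Cd8 and silences Cd4 in CD8 T cells, and Zbtb7b, which does the reverse in helper T cells, were named for those roles after their values were seen. Runx3 differed by 0.69 after 2 doses (limma adjusted p = 0.0102) and 0.47 in PD-1cKO tumors (adjusted p = 0.0629), and Zbtb7b by 0.21 (adjusted p = 0.210) and 0.37 (adjusted p = 0.00879, under 2-fold), so neither was called.

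Of 12 CD8 effector genes, 10 rose after 2 doses (median 2.66) and 9 in PD-1cKO tumors (median 1.52). The granzyme Gzmk (4.30) and the perforin gene Prf1 (3.55) rose most after 2 doses, and the chemokine Xcl1 (0.68, limma adjusted p = 0.299) and Gzma (1.30, adjusted p = 0.0127) did not pass. In PD-1cKO tumors Gzmk (2.62) and the lectin-like receptor Klrd1 (2.04) rose most, and Xcl1 (-1.23, limma adjusted p = 0.0127) and Klrk1 (0.34, adjusted p = 0.362) were not called. Several of these genes are also made by NK cells, of whose markers 1 of 3 rose after 2 doses.

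Of 12 CD4 helper and regulatory genes, 9 were high enough to be tested after 2 doses and 8 in PD-1cKO tumors. Of these, 5 rose after 2 doses (median 1.49), with the costimulator Icos (3.09) and the inhibitory receptor Ctla4 (2.32) highest, and 3 rose in PD-1cKO tumors (median 0.97), with Icos (1.45) and the chemokine receptor Ccr8 (1.28) highest. Icos, Ctla4 and several others of the list are also expressed by activated CD8 T cells. The regulatory T-cell factor Ikzf2 was lowest in both (0.07, limma adjusted p = 0.876, and -0.21, adjusted p = 0.323). The defining factor of regulatory T cells, Foxp3, was next after 2 doses (0.40, adjusted p = 0.265) and too low to be tested in PD-1cKO tumors, where the interleukin-2 receptor gene Il2ra followed (0.38, adjusted p = 0.193). The list summed to 7.0 to 8.05 FPKM in the cultures and 8.17 to 13.1 FPKM in isotype control tumors after 2 doses. In every culture 8 of its genes were at 0, but Foxp3 and Ikzf2 were not among them. The part of tumor cells in the values of Foxp3 and Ikzf2 was not tested. No gene of any of the 6 lists was called after 1 dose, at baseline, or in the tests of differences between doses and between models. After 1 dose the list medians were 1.89 for the T-cell receptor complex, 1.59 for CD8 effector genes and 1.35 for CD4 helper and regulatory genes, beside 0.26 over all genes. Without isotype control replicate 1 these medians were 1.29, 1.48 and 0.70, beside -0.04 over all genes.

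**Figure D5:**
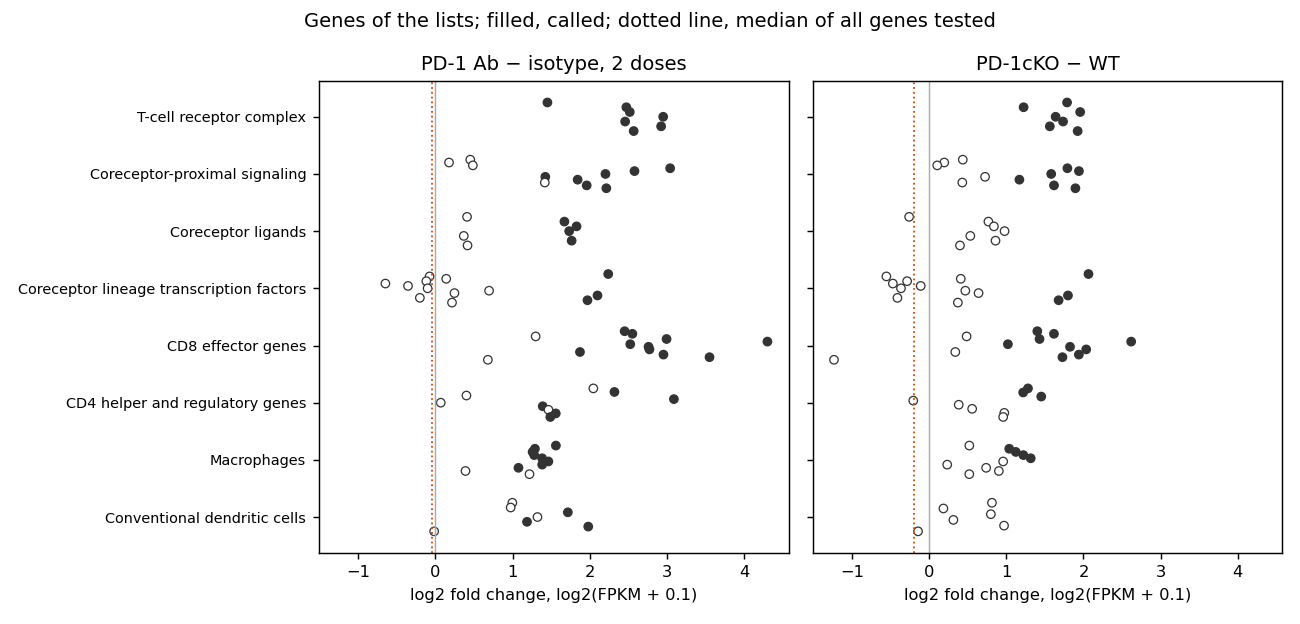
Log2 fold change on the log2(FPKM + 0.1) scale of each tested gene of the 6 lists, the macrophage markers and the conventional dendritic cell markers (points, filled where called) after 2 doses (left) and in PD-1cKO tumors (right), with a dotted line at the median of all genes. All 7 genes of the T-cell receptor complex are filled in both panels, and 3 of 13 lineage transcription factors are filled in each, with the dotted line at -0.04 and -0.20.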

How the data were processed

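Bulk RNA-seq of 46 samples was used. Per its methods, the study sequenced 50-base paired ends of stranded, ribosome-depleted total RNA. Omicsoft Array Studio (OSA) placed the reads on mouse build B38 and summarized them on Ensembl R86 gene models. The values deposited by the authors are gene-level FPKM, so depth is unknown, counting error cannot be given, and precision is the spread between samples. The count test named in the methods could not be used on FPKM, so limma took its place. All samples were grouped by their labels, and no sample or column was left out. The labels do not say whether the mice were caged or processed together, so p-values measure only the spread between these samples.

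FPKM values plus 0.1 were taken to log2, a gene was kept if its mean reached 0.5 FPKM in any group compared, and limma 3.58.1 in R 4.3.3 (lmFit, eBayes with a trend) was fitted to the whole table for each comparison, with Benjamini-Hochberg adjustment over all genes tested. A call needed 2-fold or more and an adjusted p under 0.01. Fold changes on this scale understate those of low genes. Ratios within a tumor were compared as log2 values by 2-sided exact permutation tests (252 splits of 5 against 5 and 56 of 3 against 5 tumors, smallest p 0.00794 and 0.0357) or 100000 resamples (10 against 10), adjusted over 24 tests at 0.05. Correlations used 100000 resamples.

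The members, the 6 gene lists and the 11 marker lists were chosen with earlier results of these data known. Named genes were Cd8a, Cd8b1, Cd4, Cd3e and Pdcd1, in each list at most the 2 highest and 2 lowest by log2 fold change, and the 5 most alike to each coreceptor. A gene that this rule would name is not reported here and stays in the counts. Coreceptor medians and counts stand beside those of all genes. Macrophage and dendritic cell markers were also named where they mark a possible source of Cd4 or Cd8a RNA. Symbols came from GENCODE M21 for 99.1% of gene identifiers. Alternatives were another pseudocount (1 FPKM), scaling by the median of ratios or the upper quartile, no filter or one at 1 FPKM, eBayes without a trend, array weights, all tumor groups in 1 fit, identifier runs as a covariate, the replicate number as a block, group medians for ratios, and leaving out each tumor. Within-run values, the likeness under another scaling and the list medians and marker sums without 1 isotype control tumor were added after seeing the data. The code was tested on simulated data. Python 3.11.15, numpy 2.4.6, pandas 2.3.3, scipy 1.17.1 and matplotlib 3.10.9 were used.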

Additional observations from a re-analysis of the deposited data

Results flagged for a closer look

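In 8 of 60 combinations of a group with 4 to 10 tumors and a level or ratio, 1 tumor stood farther from the rest than Dixon's test allows at 95%, and chance flags about 1 in 20. Of these, 5 concern 1 WT tumor, replicate 3. Its Cd8a was 11.6 FPKM (2.02 to 3.94 in the other 9 WT tumors), its Cd8b1 was 5.01 FPKM (0.788 to 1.81) and its Cd3e was 5.83 FPKM (0.796 to 2.03). Its log2 Cd8a to Cd4 ratio was 1.97 (0.03 to 0.98 in the others) and its log2 Cd8b1 to Cd4 ratio was 0.76 (-1.16 to -0.15). Its Cd4 was not set apart. Without it, the PD-1cKO change was 2.09 for Cd8a, 2.26 for Cd8b1 and 1.13 for Cd4 (limma adjusted p = 4.49e-05, 0.000157 and 0.00202).

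After 1 dose, isotype control replicate 1 had a log2 Cd8a to Cd3e ratio of 5.20 (1.11 to 1.68 in the other 4 controls) and a log2 Cd8b1 to Cd3e ratio of 5.00 (0.06 to 1.33). This is the tumor with 54.6% of its FPKM in mitochondrial genes and 0.0455 FPKM of Cd3e. PD-1 Ab replicate 1 of the 1-dose group had a log2 Cd8b1 to Cd4 ratio of 0.63, against 1.51 to 1.69 in the other 4 treated tumors.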

How the results depend on the processing

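Of the coreceptor level differences under other settings, 148 kept their direction and their side of the threshold, 7 lost the call, 5 gained one and 2 changed sign. For Cd8a and Cd8b1 after 2 doses, every setting and every left-out tumor kept the call. Cd4 after 2 doses lost its call with no filter (1.72, limma adjusted p = 0.0106) and with the replicate block (1.72, adjusted p = 0.0122), and ranged from 1.54 to 1.98 without 1 tumor. In PD-1cKO tumors, the calls of Cd8a, Cd8b1 and Cd4 were lost with identifier runs as a covariate (2.38, 2.91 and 1.51). Cd4 there was under 2-fold with 1 FPKM added (0.86) and with array weights (0.73), and ranged from 0.96 to 1.18 without 1 tumor. Array weights turned the baseline differences of Cd8a and Cd8b1 to 0.16 and 0.50, raised the differences between the models to 1.76, 2.03 and 1.14 and those between doses to 2.38 and 2.44. With that setting limma called 603 genes of the table between the models and 506 between doses, against 15 and 0 as fitted. Without 1 tumor the baseline differences ranged from -1.11 to 0.21 for Cd8a and from -1.17 to 0.54 for Cd8b1. Except as named, the cause was not tested.

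The deviations of same-numbered tumors had r of -0.21 to 0.16 over the 3 treatment comparisons. The labels do not say whether equal numbers mark a shared day, cage or processing, and these values cannot exclude it. The main tests did not use the numbers as pairs. Under the replicate block, limma called 316 genes after 2 doses, 0 at baseline and 1 for the difference between models, and 0 and 891 genes after 1 dose and in PD-1cKO tumors. For ratios, the block gave the same log2 differences as reported, -1.20 (Cd8a/Cd3e, 1 dose), 1.30 (Cd8a/Cd4), 1.62 (Cd8b1/Cd4), 0.53 (Cd8a/Cd3e) and 0.85 (Cd8b1/Cd3e) after 2 doses, and 0.81 (Cd8a/Cd4), 1.04 (Cd8b1/Cd4) and -0.92 (Cd4/Cd3e) in PD-1cKO tumors. None of these passed in exact sign permutations (adjusted p of 0.117 to 0.167). The smallest p that 5 pairs allow is above the threshold, and the genetic study has 10 pairs. The block pairs only 3 tumors at baseline, where the unpassed differences became 0.0033 (Cd8a/Cd4), 0.089 (Cd8b1/Cd4), 0.086 (Cd8b1/Cd8a) and -0.13 (Cd4/Cd3e). It changed no other call.

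Group medians in place of means gave, after 1 dose, -0.20 (Cd8b1/Cd8a) and -0.46 (Cd8a/Cd3e). After 2 doses they gave 1.07 (Cd8a/Cd4), 1.17 (Cd8b1/Cd4), 0.53 (Cd8a/Cd3e) and 0.74 (Cd8b1/Cd3e), and in PD-1cKO tumors 0.65 (Cd8a/Cd4), 1.25 (Cd8b1/Cd4) and -1.19 (Cd4/Cd3e), none passing (permutation, adjusted p of 0.059 to 0.457). At baseline they gave 0.50 (Cd8a/Cd4), 0.50 (Cd8b1/Cd4), 0.19 (Cd8b1/Cd8a), 0.15 (Cd8b1/Cd3e) and -0.23 (Cd4/Cd3e), each turned from the reported sign. With 0.1 FPKM added, Cd8a/Cd3e no longer passed (-0.82 after 1 dose, 0.55 after 2) and baseline Cd8b1/Cd8a was 0.062. With 1 FPKM added, Cd8a/Cd3e was -0.17 after 1 dose and 0.16 in PD-1cKO tumors, Cd8b1/Cd8a was -0.053 after 1 dose and -0.045 in PD-1cKO tumors, Cd4/Cd3e after 2 doses passed at -0.87, and baseline Cd8b1/Cd4, Cd8b1/Cd8a and Cd8b1/Cd3e turned to 0.092, 0.19 and 0.15.

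Without 1 tumor, ratio differences after 1 dose ranged from -0.10 to 0.15 (Cd8b1/Cd8a) and from -1.45 to -0.43 (Cd8a/Cd3e). After 2 doses they ranged from 1.14 to 1.45 (Cd8a/Cd4), 1.39 to 1.79 (Cd8b1/Cd4), 0.25 to 0.40 (Cd8b1/Cd8a), 0.44 to 0.62 (Cd8a/Cd3e), 0.78 to 0.91 (Cd8b1/Cd3e) and -1.01 to -0.52 (Cd4/Cd3e). The calls were lost in 6 of 10 such fits for Cd8a/Cd4, Cd8b1/Cd4 and Cd8b1/Cd3e (adjusted p of 0.0544, exact permutation). With 1 tumor fewer the smallest exact p is larger, and these 3 ratios, separated in every fit, could reach no lower. Their losses follow from that limit and its ties, so they do not show that any 1 tumor carried the call. For Cd8a/Cd3e the call was lost in 8 of 10 fits after 2 doses and in 8 of 10 after 1 dose. In PD-1cKO tumors Cd4/Cd3e ranged from -1.09 to -0.82, and its call was lost without replicate 6 of either group. At baseline the ranges were -0.59 to 0.71 (Cd8a/Cd4), -0.95 to 1.08 (Cd8b1/Cd4), -0.36 to 0.36 (Cd8b1/Cd8a), -0.27 to 0.12 (Cd8a/Cd3e), -0.62 to 0.49 (Cd8b1/Cd3e) and -0.59 to 0.44 (Cd4/Cd3e), and for Cd4/Cd3e between models -0.13 to 0.35.

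At an adjusted p under 0.05 with no fold limit, limma called 1, 3685, 6572 and 456 genes after 1 dose, after 2 doses, in PD-1cKO tumors and at baseline, and 94 for the difference between models. With 1 FPKM added the counts were 617 in PD-1cKO tumors, 135 at baseline and 25 between models, and with median-of-ratios scaling 9 between models. Without 1 tumor they were 0 to 7 after 1 dose, 375 to 1534 after 2 doses, 743 to 1871 in PD-1cKO tumors, 13 to 166 at baseline and 2 to 55 between models.

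Without the 2 farthest tumors, r in WT tumors was 0.48 (Cd8b1 on Cd8a), 0.16 (Cd8a on Cd3e), -0.076 (Cd4 on Cd3e) and 0.50 (Cd8a on Xcr1), and in PD-1cKO tumors 0.76, 0.79, 0.66, 0.55 (Cd4 on Cd8a) and 0.48 (Cd8a on Xcr1). Median-of-ratios scaling raised Cd4 on Csf1r in PD-1cKO tumors to 0.79, past the threshold.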
